A study of Macaca mulatta with 20 samples.

Results

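Probes for 7 genes of the regulator of G-protein signalling (RGS) family, namely RGS1, RGS2, RGS10, RGS14, RGS16, RGS18 and RGS19, were followed in whole blood of rhesus macaques before and after irradiation of the thorax. The genes were chosen by name, with earlier results of these data known. Counts of RGS probes beside the share of all probes are therefore given as a description. A probe was taken where the array lists it under one of these names as a non-control probe and where its spot stood well above background on 5 or more of the 20 arrays. All 8 probes that the array carries for the 7 genes met this rule, out of 34127 probes on the array, of which 19961 met it. RGS16 had 2 probes, and the one with the lower mean signal is called its second probe. Levels are given as the log2 of the processed signal minus the 75th percentile of the same array, so that a level of 0 equals the 75th percentile and a difference of 1 is 2-fold.

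The animals were male Macaca mulatta of Chinese origin that received 10 Gy of X-rays to the whole thorax in the arm of a larger study without a mitigating drug. The groups are pre-irradiation (3 days before exposure), day 2, day 5 and day 30 after exposure, with 5 arrays in each, numbered as replicates 1 to 5, and the question is how blood transcripts at each day differ from the matched blood taken before. Every animal was irradiated, and no sham-irradiated blood was analysed here. Blood was drawn from 8 exposed animals and 5 samples of each group were put on arrays, and the study states that RNA of different animals was pooled in 1 case; the labels give neither the animals nor the pooled array, and they give no ages.

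G-protein-coupled receptors switch on heterotrimeric G proteins, and RGS proteins switch them off again by speeding the hydrolysis of GTP on the alpha subunit. In blood they set how long leukocytes respond to chemokines and how strongly platelets respond to agonists such as ADP and thrombin. RGS1, RGS2, RGS16 and RGS18 are small members of the R4 subfamily, RGS10 and RGS14 belong to the R12 subfamily, and RGS19, also called GAIP, was found through its binding to Gi alpha subunits.

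The array was designed on human transcripts, so each level is the signal of a human probe with macaque RNA. The first 30 of the 60 bases of each probe are shown because they fix which stretch of each transcript was read and let the 2 RGS16 probes be told apart. They are written 5′ to 3′ as the array files list them, in lower case, and no base is marked.
RGS18: gagtctaaggccctagcgatttgggcatct
RGS10: atttcctctcaggaccgtgccgggtttatc
RGS2: tagatctgggattatgtggccttaggtagc
RGS19: ctctatccctaaccccccaaaaataggatg
RGS14: ccacgaccagaggggccttctgaggaaaga
RGS1: gaagtcccattaacttaaagtatatgtttt
RGS16: ctctgaatgtgctgggaacctcttggagcc
RGS16 second probe: tccgatcagctaccaagctggcctccaggg

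On the human build hg19 that the array files use, the RGS18, RGS1 and RGS2 probes lay close together on the plus strand, at chr1:192154601-192154660, chr1:192548857-192548916 and chr1:192781051-192781110, within a stretch of 627 kb. The RGS16 probes lay on the minus strand of the same chromosome, at chr1:182567871-182567930 and, for the second probe, chr1:182571118-182571177. The remaining probes were at chr10:121259523-121259582 on the minus strand for RGS10, chr5:176798914-176798973 on the plus strand for RGS14, and chr20:62704534-62704593 on the minus strand for RGS19. The RGS2 probe was printed in 10 spots on each array and every other probe in 1. Mismatches between these probes and the macaque transcripts were not examined here.

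The share of spots well above background ran from 50.9% to 67.3% over the arrays, with the highest on day 5 replicate 3 and 58.8% or less on the other 19 arrays. The arrays were read from 5 slides of 4, each with 1 array of every group in the same position, so position on the slide and group cannot be told apart. Probes for PTPRC, CD3E, CD14, CSF3R, PPBP and ALAS2, which mark leukocytes, T cells, monocytes, neutrophils, platelets and erythroid cells, were well above background on all 20 arrays. The probe for MS4A1, which marks B cells, was well above background on 2 arrays, while 14 of 16 listed B cell markers met the rule. In whole blood, fewer cells of a type and less RNA per cell cannot be told apart.

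Of the 8 RGS probes, 6 (those of RGS2, RGS10, RGS14, RGS18 and RGS19 and the main probe of RGS16) were well above background on all 20 arrays. RGS1 was well above background on 11 arrays, with 2 before irradiation, 2 at day 2, 3 at day 5 and 4 at day 30. The second RGS16 probe was well above background on 12, with 4, 3, 4 and 1 in the same order. None was saturated on any array.

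RGS18 was the 1 RGS gene called across the 4 time points (limma adjusted p = 0.0881). Its adjusted p stayed under 0.1 in 6 of 18 alternatives, and these 6 called 0.892% to 3.38% of all probes. Its level was higher after irradiation in every pair at every day, although no single day was called. RGS2 had differences of similar size in the same direction that did not pass the test. RGS19 and RGS14 had higher means and the main RGS16 probe lower means at all 3 days, without passing it, while the means of RGS10 and RGS1 lay on both sides of the pre-irradiation level. A call needed both p under 0.005 and a false discovery rate (FDR, Benjamini-Hochberg) under 10% in limma, a linear model that shares the estimate of spread across probes, with the replicate number as a block.

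By the moderated F test across the 4 time points, 1 of the 8 RGS probes was called, that of RGS18, against 0.902% of all probes tested. In the comparisons of single days with pre-irradiation, 0 RGS probes were called at day 2, day 5 or day 30, where 0.0601%, 0.0% and 0.0% of all probes were. At an unadjusted p under 0.05, 4 of the 8 RGS probes passed at day 2, 2 at day 5 and 4 at day 30, against 15.0%, 11.2% and 17.5% of all probes. These counts join both directions. Those at day 2 were RGS2, RGS18 and RGS19, higher, and RGS1, lower. Those at day 5 were RGS2 and RGS18, higher. Those at day 30 were RGS2, RGS18 and RGS19, higher, and the second RGS16 probe, lower. RGS1 and the second RGS16 probe were not well above background on all arrays. At p under 0.005 with no FDR limit, RGS2 and RGS18 passed at day 2, day 5 and day 30, 2 of 8 each time, against 2.55%, 1.58% and 3.14% of all probes. Under the same limit 0 RGS probes passed between day 2 and day 5 or day 30 (0.276% and 1.45% of all probes) and 1 passed between day 5 and day 30 (0.681%), the second RGS16 probe. When each probe was tested on its own without shared spread, 0 RGS probes were called in any comparison. Across the 4 time points 0.336% of all probes were called in that setting. The 3 comparisons share the pre-irradiation arrays, so that a low level there enters all of them.

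**Figure D1:**
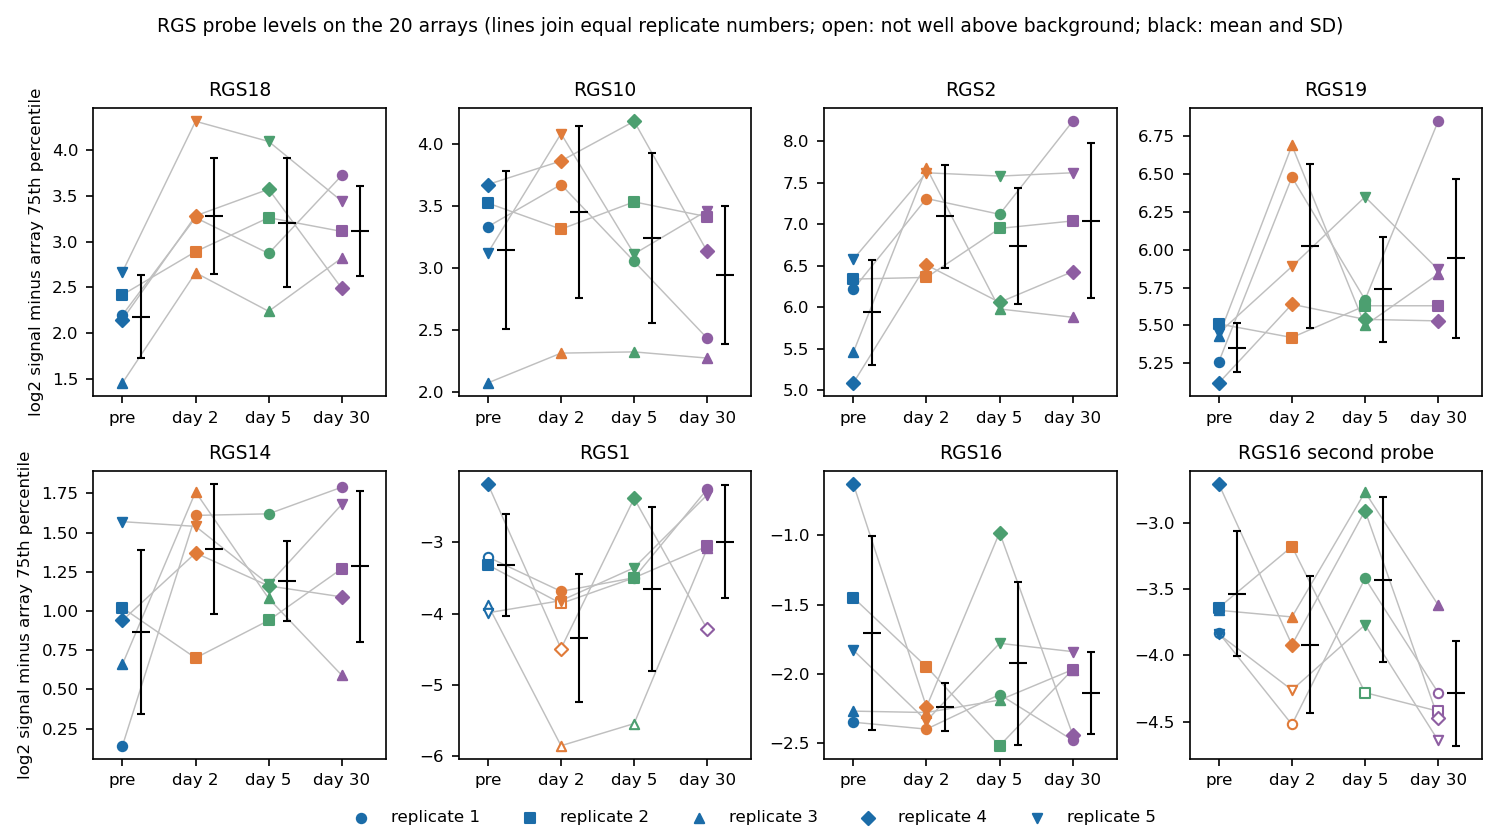
Levels of the 8 RGS probes on the 20 arrays, in log2 signal minus the 75th percentile of the array, with 1 panel per probe and its own vertical scale. Grey lines join equal replicate numbers, open symbols are spots not well above background, and black bars are the mean and SD of 5 arrays. All 5 RGS18 lines run upward from the pre-irradiation blood to day 2, from a mean of 2.18 to 3.28.

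RGS18, found in platelets, megakaryocytes and myeloid cells and known to restrain platelet activation, had levels before irradiation of 2.20, 2.42, 1.46, 2.15 and 2.67 in replicates 1 to 5. At day 2 they were 3.26, 2.89, 2.66, 3.28 and 4.31, and the single overlap with pre-irradiation blood was between day 2 replicate 3 and pre-irradiation replicate 5. At day 5 they were 2.87, 3.26, 2.24, 3.57 and 4.09, with replicate 3 inside the pre-irradiation range. At day 30 they were 3.72, 3.11, 2.82, 2.49 and 3.44, with replicate 4 inside that range and replicate 3 the next lowest.

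The group means of RGS18 were 2.18 ± 0.45 (SD, n = 5) before irradiation, 3.28 ± 0.63 at day 2, 3.21 ± 0.70 at day 5 and 3.12 ± 0.49 at day 30. Across the time points the F statistic was 9.93 (limma adjusted p = 0.0881). The paired log2 difference from pre-irradiation was 1.10 (SE 0.19) at day 2, a 2.15-fold higher level, and ranged from 0.47 to 1.64 over the pairs (limma adjusted p = 0.138). At day 5 it was 1.03 (SE 0.18), a 2.04-fold higher level (limma adjusted p = 0.279). At day 30 it was 0.94 (SE 0.21), a 1.91-fold higher level (limma adjusted p = 0.138). RGS18 was therefore higher in 5 of 5 pairs at each day.

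The post-irradiation levels of RGS18 did not separate from each other. Day 5 minus day 2 was -0.08 (SE 0.19), day 30 minus day 5 was -0.09 (SE 0.30) and day 30 minus day 2 was -0.17 (SE 0.24). Of these 3 differences, each was of smaller size than its standard error, and the pairs went both ways. Within the 5 slides, where the arrays compared carry different replicate numbers except for replicate 2 before irradiation and at day 5 on slide 1, RGS18 at day 2 was higher than before irradiation on 4, with differences from -0.02 to 1.89. It was higher on all 5 slides at day 5, from 0.03 to 2.11, and at day 30, from 0.07 to 2.25. The call of RGS18 across time points did not hold without the replicate block (adjusted p = 0.596) or with the slide as the block (adjusted p = 0.65). In these 2 settings 0.02% and 0.025% of all probes were called. Nor did it hold with each replicate left out in turn (adjusted p from 0.156 to 0.322), where 0.0% to 0.827% of all probes were called. The adjusted p ran from 0.0562 to 0.65 over 18 alternatives.

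RGS10, which is abundant in platelets and lymphoid cells and also dampens platelet responses, had no difference from pre-irradiation that passed the test. Its levels ran from 2.07 to 3.67 before irradiation, 2.31 to 4.08 at day 2, 2.32 to 4.18 at day 5 and 2.27 to 3.46 at day 30. All 4 ranges overlapped broadly, and replicate 3 was the lowest of its group at every time. The paired log2 difference of RGS10 was 0.31 (SE 0.19) at day 2, 0.10 (SE 0.16) at day 5 and -0.20 (SE 0.22) at day 30, with 4, 3 and 2 of 5 pairs higher, and with median scaling the day 5 value was -0.02. From day 2 to day 30 it was -0.50 (SE 0.22), lower in 4 of 5 pairs (limma adjusted p = 0.394).

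Both genes were set beside 15 measured platelet markers of 18 listed, among them ITGA2B, GP9, PPBP and TUBB1. The mean log2 level of that list ran from -0.38 to 1.11 before irradiation, 1.13 to 2.88 at day 2, 0.67 to 1.51 at day 5 and -0.03 to 0.96 at day 30. All 15 platelet markers were higher at day 2 than before, 15 at day 5 and 7 at day 30, with median log2 differences of 1.45, 0.41 and -0.05, and none was called. At day 30, where RGS18 was 0.94 above its pre-irradiation level, the platelet list levels overlapped those before irradiation. Over the 20 arrays, which share animals and slides, Pearson's r with the platelet list was 0.50 for RGS18 and 0.65 for RGS10, as a description. The part of platelets in the RGS18 result was not tested beyond these values.

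RGS2, which acts preferentially on Gq alpha subunits, had levels before irradiation of 6.22, 6.34, 5.46, 5.09 and 6.58 in replicates 1 to 5. At day 2 they were 7.31, 6.36, 7.68, 6.51 and 7.62, with replicates 2 and 4 inside the pre-irradiation range. At day 5 they were 7.12, 6.95, 5.98, 6.06 and 7.58, and at day 30 they were 8.24, 7.04, 5.88, 6.43 and 7.62. Replicates 3 and 4 lay inside the pre-irradiation range at both of the later days, while replicates 1, 2 and 5 lay above it.

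The group means of RGS2 were 5.94 ± 0.63 (SD, n = 5), 7.10 ± 0.62, 6.74 ± 0.69 and 7.04 ± 0.94 in order of time. The paired log2 difference of RGS2 was 1.16 (SE 0.29) at day 2, with pairs from 0.02 to 2.22 (limma adjusted p = 0.191). At day 5 it was 0.80 (SE 0.15), with pairs from 0.52 to 1.0 (limma adjusted p = 0.279), and at day 30 it was 1.10 (SE 0.25), with pairs from 0.42 to 2.03 (limma adjusted p = 0.133). RGS2 was thus higher in 5 of 5 pairs at each day without being called, although the day 2 difference of replicate 2 was near 0. The F test across time points gave an adjusted p of 0.194 in limma. Within slides RGS2 was higher on 5 of 5 at day 2, 4 of 5 at day 5 and 4 of 5 at day 30.

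At day 2, 2 of the 8 RGS probes were higher in every pair, against 6.17% of all probes. With RGS19 there were 3 at day 5 and 3 at day 30, against 7.24% and 7.41%. RGS2 and RGS18 were higher in every pair at all 3 days, 2 of 8, against 0.892% of all probes tested. RGS2 passed the test at day 2 without replicate 2 (adjusted p = 0.0678) and in 3 other settings, and at day 30 in 3 settings, and its adjusted p ran from 0.016 to 0.514 over 20 alternatives at day 2 and from 0.057 to 0.463 over 19 at day 30. Without replicate 2, 2.95% of all probes were called at day 2, and in the 3 settings at day 30 the shares were 2.26%, 4.53% and 5.98%. RGS18 passed at day 2 without replicate 2 (adjusted p = 0.0517) and in 5 other settings, with a range of 0.0182 to 0.439 and between 1.0% and 6.35% of all probes called in those 5, and at day 30 in the same 3 settings as RGS2, with a range of 0.0691 to 0.455. At day 5 both passed in 1 setting, the slide added to the replicate block (adjusted p = 0.0283 for RGS2 and 0.021 for RGS18, with ranges up to 0.936), in which 8.80% of all probes were called.

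**Figure D2:**
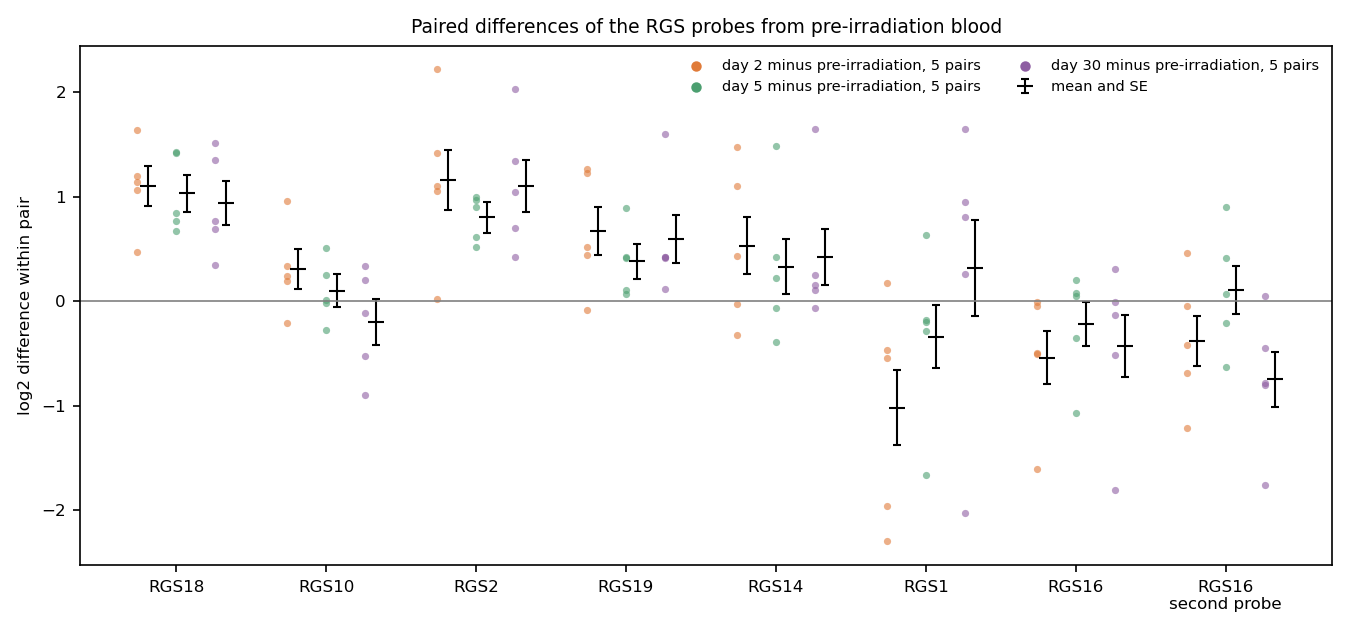
Paired log2 differences of the 8 RGS probes from pre-irradiation blood at day 2, day 5 and day 30. Each dot is 1 of 5 pairs, and black bars are the limma mean and its SE. Every RGS18 and RGS2 pair lies above 0. The day 2 pairs of the main RGS16 probe all lie below it, those of replicates 1 and 3 only just.

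RGS19, a GTPase-activating protein for Gi alpha subunits, had levels before irradiation of 5.26, 5.51, 5.43, 5.12 and 5.45. They were 6.48, 5.42, 6.69, 5.64 and 5.89 at day 2, then 5.67, 5.63, 5.50, 5.54 and 6.35 at day 5, then 6.85, 5.63, 5.84, 5.53 and 5.87 at day 30. The day 30 levels of RGS19 all lay above the pre-irradiation levels, whereas replicate 2 at day 2 and replicate 3 at day 5 did not. RGS19 was the 1 RGS probe of 8 with groups that did not overlap at day 30, against 0.852% of all probes higher without overlap.

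The pre-irradiation levels of RGS19 were close together, at 5.35 ± 0.16 (SD, n = 5), and the means after irradiation were 6.03 ± 0.54, 5.74 ± 0.35 and 5.95 ± 0.53. The paired log2 difference of RGS19 was 0.67 (SE 0.23) at day 2, higher in 4 of 5 pairs (limma adjusted p = 0.253). At day 5 it was 0.38 (SE 0.17), higher in 5 of 5 (limma adjusted p = 0.449). At day 30 it was 0.59 (SE 0.23), higher in 5 of 5 (limma adjusted p = 0.248), and without replicate 1 it was 0.34. Within slides RGS19 was higher on 4, 5 and 5 of the 5 slides at the 3 days.

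RGS14, which carries a GoLoco motif that holds Gi alpha subunits in the GDP-bound state, had levels from 0.14 to 1.57 before irradiation, 0.70 to 1.76 at day 2, 0.94 to 1.62 at day 5 and 0.59 to 1.79 at day 30. All ranges overlapped. Its paired log2 difference was 0.53 (SE 0.27), 0.33 (SE 0.26) and 0.42 (SE 0.27) at the 3 days, with 3, 3 and 4 of 5 pairs higher (lowest limma adjusted p = 0.403). Replicate 1 held the highest pair at each day, 1.47, 1.48 and 1.65, and without it the RGS14 differences were 0.29, 0.04 and 0.11.

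RGS1, which in B and T lymphocytes blunts migration towards chemokines, was well above background on only 11 of the 20 arrays. Its levels were -3.21, -3.32, -3.88, -2.19 and -3.99 before irradiation, and -3.69, -3.86, -5.85, -4.49 and -3.82 at day 2. They were -3.50, -3.50, -5.54, -2.39 and -3.36 at day 5, and -2.26, -3.06, -3.09, -4.22 and -2.34 at day 30. Groups overlapped throughout, and the lowest 2 readings, both from replicate 3, were not well above background.

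The paired log2 difference of RGS1 was -1.02 (SE 0.36) at day 2, lower in 4 of 5 pairs (limma adjusted p = 0.269). It was -0.34 (SE 0.30) at day 5 and 0.32 (SE 0.46) at day 30, and the day 30 value was -0.01 without replicate 5 and 0.91 without replicate 4. From day 2 to day 30 the level of RGS1 was 1.34 (SE 0.34) higher, in 5 of 5 pairs (limma adjusted p = 0.332), where 7.03% of all probes were higher in every pair. No RGS probe was called between day 2 and day 30 or between day 2 and day 5, where 0.0501% and 0.0% of all probes were. The RGS1 differences depend on how background is treated, since with normexp background correction and quantile normalization the day 2 difference was -0.19. With the slide added to the replicate block, which leaves 1 residual degree of freedom, RGS1 was called at day 2 (adjusted p = 0.0364), as were 6.35% of all probes. Its adjusted p at day 2 ran from 0.0364 to 0.58 over 18 alternatives.

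RGS16, which limits chemokine receptor signals in activated T cells and other leukocytes, had levels on its main probe of -2.35, -1.45, -2.27, -0.63 and -1.83 before irradiation and -2.40, -1.95, -2.28, -2.24 and -2.34 at day 2. The day 2 levels were narrowly grouped, and replicate 4, the highest before irradiation, had the largest difference, -1.61. Replicates 1 and 3 hardly differed from before, at -2.40 after -2.35 and -2.28 after -2.27, although both count as lower pairs. Levels ran from -2.52 to -0.98 at day 5 and from -2.48 to -1.84 at day 30, and overlapped with the pre-irradiation range on both days. The paired log2 difference of RGS16 was -0.54 (SE 0.25) at day 2, lower in 5 of 5 pairs (limma adjusted p = 0.356), where 8.19% of all probes were lower in every pair. It was -0.22 (SE 0.21) at day 5, where 3 of 5 pairs were higher, and -0.43 (SE 0.30) at day 30, where 4 of 5 were lower. Without replicate 4 the 3 differences were -0.27, -0.19 and -0.09.

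The second RGS16 probe ran from -3.84 to -2.71 before irradiation, -4.52 to -3.18 at day 2, -4.28 to -2.77 at day 5 and -4.64 to -3.62 at day 30, where only replicate 3 was well above background. Its paired log2 difference was -0.38 (SE 0.24), 0.11 (SE 0.23) and -0.75 (SE 0.26) at the 3 days. Between day 5 and day 30 it was -0.86 (SE 0.22), lower in 5 of 5 pairs as were 5.88% of all probes (limma adjusted p = 0.561), and no RGS probe was called in that comparison, where 0.0% of all probes were. Both RGS16 probes had lower means at day 2 and day 30, and they differed in sign at day 5, where the second probe was at -0.10 with quantile normalization, -0.01 with median scaling and -0.01 with normexp correction. Over the 20 arrays Pearson's r between them was 0.60.

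Among themselves, RGS2, RGS19, RGS14 and RGS18 varied together over the 20 arrays, as a description. Pearson's r with RGS2 was 0.80 for RGS19, 0.72 for RGS14 and 0.72 for RGS18. It was lower in the other pairs, at 0.63 for RGS14 with RGS19, 0.54 for RGS18 with RGS19 and 0.52 for RGS14 with RGS18. RGS2 ran opposite to the second RGS16 probe, with r of -0.65, and had an r of -0.02 with RGS1, whose probe lies in the same stretch of human chromosome 1 as those of RGS18 and RGS2. The points share animals, slides and the 75th percentile that was subtracted from every probe of an array.

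The 4 RGS genes above differed in how closely they ran with the myeloid marker lists. RGS2 had an r of 0.91 and RGS19 of 0.83 with the mean level of 15 neutrophil markers, which include CSF3R, MME and S100A12, and RGS14 had 0.67 and RGS18 0.51. With 12 monocyte markers, which include CD14 and FCN1, r was 0.76 for RGS19, 0.65 for RGS2, 0.45 for RGS14 and 0.33 for RGS18. The r of RGS18 with the neutrophil list was close to its 0.50 with the platelet list. The neutrophil list ran from 0.09 to 2.37 before irradiation, 1.37 to 3.20 at day 2, 1.26 to 2.82 at day 5 and 1.61 to 3.82 at day 30, and all 15 markers were higher at each day without 1 being called. The monocyte list ran from 2.14 to 3.15, 2.77 to 3.54, 2.20 to 3.59 and 3.0 to 3.65, and 10, 10 and 11 of its 12 genes were higher, again with none called. The part of neutrophils and monocytes in the RGS2 and RGS19 differences was not tested.

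With the mean level of 27 measured immediate-early genes, which stimulated cells transcribe within minutes, r was 0.94 for RGS2, 0.81 for RGS19, 0.73 for RGS14 and 0.60 for RGS18. Of these genes 19, 14 and 22 were higher at day 2, day 5 and day 30, with median log2 differences of 0.22, 0.03 and 0.27, and none was called. The largest at day 2 was ATF3, at 1.22 (SE 0.44). At day 5 the RGS2 difference of 0.80 stood beside a list median of 0.03.

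**Figure D3:**
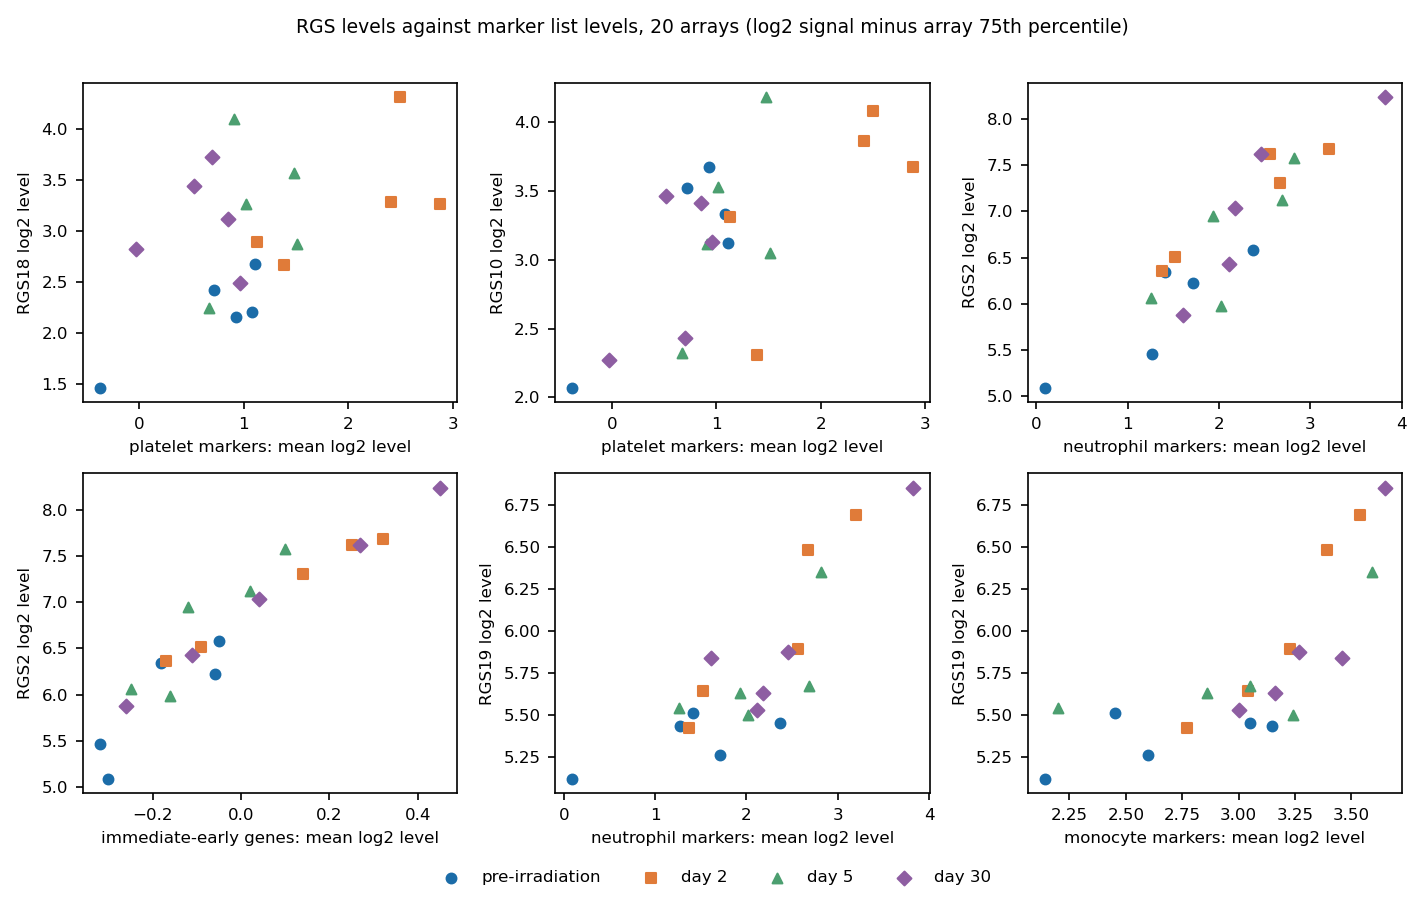
Levels of RGS18, RGS10, RGS2 and RGS19 on the vertical axes against the mean level of a marker list on the horizontal axes, both in log2 signal minus the 75th percentile of the array, for 20 arrays coloured by group. RGS2 lies along a narrow band with the neutrophil list (r = 0.91) and the immediate-early list (r = 0.94). RGS18 at day 30 lies above its pre-irradiation range in all replicates but replicate 4. The platelet list levels at day 30 overlap those of the pre-irradiation blood, and the part of platelets in the RGS18 result was not tested.

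The lymphocyte lists ran opposite to RGS2, RGS19, RGS18 and RGS14 over the arrays. The mean level of 25 T and NK cell markers ran from 1.95 to 2.27 before irradiation, 1.02 to 1.75 at day 2, 0.97 to 2.37 at day 5 and 1.55 to 2.31 at day 30, and all 25 were lower at day 2, with KLRB1 called lower by -1.67 (SE 0.21, limma adjusted p = 0.0965). From day 2 to day 30, 3 genes of that list were called higher, KLRB1 by 2.29 (SE 0.26), GZMK by 1.92 (SE 0.21) and KLRD1 by 1.43 (SE 0.16), each with a limma adjusted p of 0.094. The 14 measured B cell markers ran from 1.51 to 2.13, 0.69 to 1.58, 1.02 to 1.66 and 0.83 to 1.84, and all 14 were lower at day 2 and at day 5. With the B cell list RGS19 had an r of -0.80, RGS2 of -0.69, RGS14 of -0.57 and RGS18 of -0.47. RGS1 had 0.23, RGS10 0.30, the main RGS16 probe 0.38 and the second 0.12. With the T and NK cell list r was -0.68 for RGS19, -0.64 for RGS2, -0.62 for RGS18 and -0.40 for RGS14. It was 0.35 for RGS1, 0.0 for RGS10, 0.40 for the main RGS16 probe and 0.27 for the second. The part of lymphocytes in the differences of any RGS gene was not tested.

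The 3 genes whose levels followed each RGS gene most closely over the 20 arrays differed between the members. For RGS2 they were ADCY4, an adenylyl cyclase, ACSL1, a long-chain acyl-CoA synthetase, and FRY, with r of 0.95, 0.95 and 0.94. For RGS19 they were SH3GLB1, FTH1, the ferritin heavy chain, and a transcript without a gene symbol, at 0.94, 0.94 and 0.93. For RGS18 they were DPH3 at 0.88, FCHO2 at 0.86 and a transcript without a gene symbol at 0.84. For RGS10 they were PDE4D, a phosphodiesterase that breaks down cyclic AMP, at 0.91, MLLT11 at 0.89 and KIF2A, a kinesin, at 0.88. For RGS14 they were RIPK3, a kinase of necroptosis, at 0.91, NDEL1 at 0.87 and INPP5A, an inositol polyphosphate phosphatase, at 0.87. The closest to RGS1 were FAM69A, TMX3 and GLCCI1, at 0.85, 0.85 and 0.84, and the closest to RGS16 were HN1L, NOP16 and SRBD1, at 0.76, 0.74 and 0.73.

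Of 18 other genes with RGS or RGS-like domains or binding partners, all with a probe on the array, 6 stood well above background on 5 or more arrays, 5 on 1 to 4 arrays and 7 on none. RGS13 and RGS21, members of the R4 subfamily like RGS18, were among those on none. The 6 measured genes, RGS3, RGS4, RGS9, RGS11, AXIN1 and AXIN2, were lower at day 2 in 6 of 6 cases, and 0 were called at any day. RGS9 was lower by -1.66 (SE 0.44) at day 2 and in 5 of 5 pairs (limma adjusted p = 0.198). RGS3 was lower by -0.82 (SE 0.23) at day 30, also in 5 of 5 pairs (limma adjusted p = 0.163). Over these 6 genes the median log2 difference was -0.24, -0.21 and -0.18 at the 3 days, and over the 7 members it was 0.53, 0.33 and 0.42, beside -0.04, 0.03 and -0.02 over all probes tested.

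The partners of RGS proteins in the pathway were described in the same way. Of 11 measured G alpha subunits of 13 listed, 8, 7 and 6 were higher at the 3 days and 0 were called. Among the alpha subunits that RGS proteins act on, GNAI2 was higher by 0.22 (SE 0.15) and GNAQ by 0.50 (SE 0.22) at day 2. GNAZ, a Gi-type subunit of platelets, was higher by 1.15 (SE 0.31) at day 2, in 4 of 5 pairs, and was at -0.11 (SE 0.21) at day 30. GNAO1 differed most at day 30, by -1.29 (SE 0.24), lower in 5 of 5 pairs (limma adjusted p = 0.126). Of 11 measured beta and gamma subunits 10, 9 and 10 were higher, led at day 2 by GNG11 at 1.46 (SE 0.32) and at day 30 by GNB4 at 0.87 (SE 0.19), and 0 were called.

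Receptor kinases and arrestins also end receptor signals. Of the 7 genes 4, 4 and 6 were higher at the 3 days and 0 were called, and the largest difference was that of GRK5 at day 5, -0.51 (SE 0.14). Among 11 measured effectors 7, 8 and 7 were higher and 0 were called. ADCY4, the gene closest to RGS2, was higher by 1.64 (SE 0.48), 1.04 (SE 0.24) and 1.45 (SE 0.36), in 5 of 5 pairs at each day (lowest limma adjusted p = 0.147). PLCB2, the phospholipase C that Gq and G beta-gamma activate in leukocytes, was higher by 0.42 (SE 0.22), 0.48 (SE 0.20) and 0.50 (SE 0.20).

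Receptors upstream of the RGS proteins were counted for platelets and leukocytes separately. Of 8 measured platelet receptors 7, 7 and 4 were higher at the 3 days, and P2RY12, the platelet ADP receptor, was at 1.45 (SE 0.23), 0.52 (SE 0.14) and -0.11 (SE 0.19), while RGS18 was at 1.10, 1.03 and 0.94. Of 29 measured leukocyte receptors 15, 12 and 19 were higher. CXCR2, the neutrophil receptor for interleukin 8, was higher by 1.06 (SE 0.33), 0.64 (SE 0.20) and 1.11 (SE 0.26), in 5 of 5 pairs each day, a course like that of RGS2. The largest difference among the leukocyte receptors went the other way, that of PTAFR at day 30, -1.85 (SE 0.37), lower in 5 of 5 pairs. CXCR6, a receptor of T and NK cells, was at -1.19 (SE 0.18) at day 2 and 0.05 (SE 0.18) at day 30. None of these receptors was called against pre-irradiation. From day 2 to day 30 CXCR6 was called higher, by 1.24 (SE 0.13, limma adjusted p = 0.094), in 5 of 5 pairs.

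**Figure D4:**
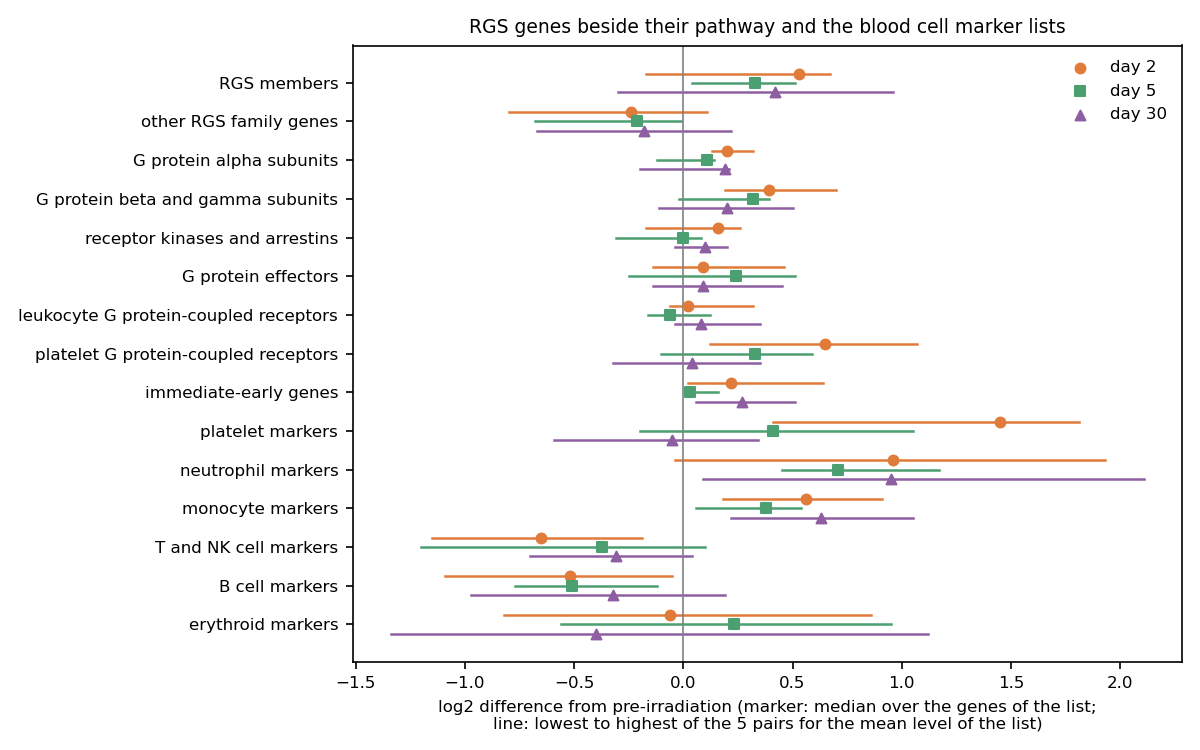
Median log2 difference from pre-irradiation over the genes of each list, with 1 marker per day and a line from the lowest to the highest of 5 pairs for the mean level of the list. The RGS members sit at 0.53, 0.33 and 0.42, the other RGS family genes below 0, and the platelet list is at 1.45 at day 2 and -0.05 at day 30.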

How the data were processed

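Globin-depleted RNA of whole blood was hybridized by the study to one-colour (Cy3) Agilent Whole Human Genome 4x44K v2 arrays, 5 per group. Per the file headers, the deposited intensity of each spot is the processed signal of Agilent Feature Extraction 12.0.2.2 (the labels name version 10.7), background subtracted and detrended and not normalized between arrays. The authors also deposited log2 values of a subset of probes. Their column medians lie between 7.55 and 7.83, and on every array 96.9% or more of them match the averaged log2 signal plus 1 constant per array within 0.001. The filter and the reason for the constants are not given in the sources used here. That table was an alternative only, and it does not list RGS1, RGS14 or RGS16.

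Control spots and spots marked non-uniform or population outliers were left out, log2 processed signals were averaged per probe, and from these the 75th percentile over all non-control spots of the array was subtracted. This percentile was taken as the main scale, over that of averaged probes, after values on both scales had been seen. Probes well above background on at least 5 of 20 arrays were tested in limma 3.58.1 (R 4.3.3) wherever at least 4 pairs had a value, and p-values were adjusted over all 19961. Each comparison was fitted on its own 2 groups, blocked by replicate number. The F test used all arrays, for probes with a value on at least 18. The study states that samples were compared with matched controls, and the labels number the replicates without naming animals. Same-numbered arrays had correlated deviations from their group means (median r 0.284, 25 of 30 pairs over 0.1). Only 3 of 5 pairs were over 0.1 between day 30 and pre-irradiation, and 3 of 5 between day 2 and day 5. Between day 2 and day 30 it was 4 of 5, with a lowest r of -0.162. Arrays of different numbers had a median r of -0.07 with 25 of 120 over 0.1, and 16 of 20 arrays were closest to their own number. The 5 arrays of a group limit the precision. The p-values set each difference against the spread among replicates, an estimate that limma shares across probes. Same-numbered arrays mostly lay on different slides, so that spread also holds differences between slides.

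Every member is named, with the 3 genes most correlated with it among those well above background on all arrays. Genes of the pathway and marker lists are given by counts, with values for called genes, for the largest and smallest changes and for up to 4 that stand next to a member in function. The members and lists were chosen with earlier results of these data known. List levels are means over the log2 levels of 1 probe per gene, the brightest. The comparison of day 2 with pre-irradiation was tested on simulated data. Of 100 probes changed by a log2 difference of 1, 48 were called, and of 100 changed by 2, 92 were called. Among the 19954 probes, 13 unchanged ones were called.

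The alternatives were quantile normalization, median scaling, normexp correction with an offset of 50 followed by quantile normalization (marked spots kept), no filter on dim probes, a filter that needs all 20 arrays, marked spots kept, the deposited log2 table, a fit without the replicate block, a single fit of all arrays, the slide as a block or added to the replicate block, a spread that depends on intensity, single-probe tests, each replicate left out, an FDR under 5% and no FDR limit. One fit of all arrays with slide and replicate blocks, and the percentile over averaged probes, were added after the data were examined. Values were computed with Python 3.11.15, pandas 2.3.3, numpy 2.4.6 and scipy 1.17.1. Protein and promoter sequences were not used here.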

Additional observations from a re-analysis of the deposited data

Results flagged for a closer look

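Of 56 groups of 5 values examined, 5 had a highest value far from the other 4, and chance gives this in about 1 of 20 groups. Replicate 1 stood apart for 2 RGS genes in the difference between day 30 and pre-irradiation. For RGS14 its log2 difference was 1.65, and the next highest pair was 0.25. For RGS19 it was 1.60, and the next was 0.42, with the day 30 level of RGS19 in replicate 1 at 6.85 and the next highest level at 5.87. At day 5 the level of RGS19 in replicate 5 was 6.35, and the next highest was 5.67. Before irradiation the second RGS16 probe read -2.71 in replicate 4, and the next highest reading was -3.64.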

How the results depend on the processing

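For the RGS probes, 313 of 334 values kept their direction and their side of the threshold under the alternatives that keep every replicate, 17 passed the test in addition and 4 reversed. Leaving out a replicate kept 115 of 120, added 2 and reversed 3. At day 2 the count of RGS probes called, 0 above, was 1 (RGS18) with probes well above background on all 20 arrays, 2 (RGS2 and RGS18) with the deposited log2 values, 2 (the same probes) with all 20 arrays in one fit, 3 (RGS1, RGS2 and RGS18) with the slide added to the replicate block, 1 (RGS18) with an intensity trend, 2 with no FDR limit, and 0 to 2 with a replicate left out. At day 30 it was 2 (RGS2 and RGS18) with probes well above background on all 20 arrays, with the deposited log2 values, with an intensity trend and with no FDR limit. At day 5 it was 2 (RGS2 and RGS18) with the slide added to the replicate block. With no FDR limit it was also 2 at day 5 and 1 (the second RGS16 probe) between day 5 and day 30. These settings call other shares of all probes, at day 2 1.24% with probes well above background on all arrays, 5.80% with the deposited values, 1.72% in one fit, 6.35% with the slide added, 2.95% without replicate 2 and 1.0% with the trend, at day 30 4.53% with probes well above background on all arrays, 5.98% with the deposited values and 2.26% with the trend, and at day 5 8.80% with the slide added. Across the 4 time points the count of 1 went to 0 with quantile normalization, median scaling, no filter on dim probes, no replicate block, the slide as a block, the slide added to the replicate block, each probe tested on its own, an FDR under 5% and any replicate left out (0 to 0), and to 2 (RGS2 and RGS18) with no FDR limit. Across time points 0.741% of all probes were called with quantile normalization, 0.777% with median scaling and 0.208% with no filter on dim probes. The shares were 0.02% with no replicate block, 0.025% with the slide as a block, 0.386% with the slide added and 0.336% with single-probe tests. With a replicate left out the share ran from 0.0% to 0.827%. The RGS18 adjusted p without the replicate block was 0.596 across time points and 0.41 at day 2. Reversals were small and touched no called value. The RGS10 difference at day 5 was -0.02 with median scaling and -0.01 to 0.19 with a replicate left out. The second RGS16 probe at day 5 was at -0.10 with quantile normalization, -0.01 with median scaling, -0.01 with normexp correction and -0.09 to 0.29 with a replicate left out. RGS1 at day 30 ran from -0.01 to 0.91 with a replicate left out. The percentile over averaged probes, added after the data were examined, left the RGS18 call across time points (adjusted p = 0.099), and all arrays in one fit with slide and replicate called no RGS probe. The slide added to the replicate block left 1 residual degree of freedom in 4 comparisons (probes with a value on all 10 arrays) and none at day 30 or between day 2 and day 5, which have no such value, and the filter on all 20 arrays drops RGS1 and the second RGS16 probe. The cause of these shifts was not tested.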
